A study of Mus musculus with 10 samples.

Results

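The integrated stress response is described here through 10 genes chosen by name, of 54532 genes in the deposited table: the kinase gene Eif2ak3, the transcription factor genes Atf4, Atf5, Cebpg and Ddit3, the feedback genes Ppp1r15a and Trib3, and the target genes Asns, Chac1 and Sesn2. The 10 RNA-seq libraries were made from primary peritoneal macrophages of mice, the resident phagocytes of the abdominal cavity. Young wild-type mice gave libraries A, B, C and E (n = 4), aged wild-type mice gave libraries 3, 4 and 6 (n = 3), and aged mice labelled Trem1-/-, in which the gene of the myeloid receptor TREM1 was deleted according to the label, gave libraries 1, 2 and 3 (n = 3). The study addressed the effect of that deletion during ageing. The labels give no age in months, sex, batch or sorting step and no young Trem1-/- group. They do not say that libraries came from separate mice, so the spread behind each p-value is that between libraries and could be technical.

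In the integrated stress response, kinases that sense misfolded protein, amino acid shortage, viral RNA or haem shortage phosphorylate the translation initiation factor eIF2alpha. General translation then falls while the Atf4 mRNA is translated more, and the ATF4 protein, paired with C/EBP proteins such as the product of Cebpg, turns on genes of amino acid supply, redox balance and, through CHOP (Ddit3), cell death. In macrophages this response is known for tuning cytokine output and survival under metabolic and microbial stress.

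The libraries held 2663744 to 5603498 reads. Trem1 was read in every library, at 14.8, 8.005, 12.0 and 24.4 normalized counts in young libraries A, B, C and E, 64.0, 15.3 and 27.0 in aged wild-type libraries 3, 4 and 6, and 23.5, 106 and 13.8 in Trem1-/- libraries 1, 2 and 3, so gene counts gave no check of the deletion and genotypes are used as labelled. Macrophage markers were read in every library, but the groups differed in markers of other cells. Summed over 11 macrophage markers, normalized counts were 74204 to 81138 in young and 24284 to 38182 in aged wild type, and 63289 to 82178 in Trem1-/-. The sum over 10 B cell markers was 2486 to 5442, 13822 to 21466 and 6211 to 13040 in the same order. Aged wild-type replicate 4 stood apart, with an erythroid marker sum of 23701 against at most 751 in the other 9 libraries and a mitochondrial transcript sum of 98959 against at most 36377.

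Measured per kilobase of exon, so that genes can be compared, Atf4 was the most abundant of the 10 genes, with 187 normalized counts per kilobase averaged over all libraries. Ppp1r15a followed with 92.7, Eif2ak3 with 59.2, Cebpg with 40.8, Ddit3 with 23.8, Sesn2 with 14.0 and Atf5 with 9.08 normalized counts per kilobase. The 3 remaining genes, all classical ATF4 or CHOP outputs, were almost unread: Asns had 1.08, Trib3 0.842 and Chac1 0.503 normalized counts per kilobase. Of the 10 genes, 7 passed the minimum of a mean of 10 normalized counts and were tested. In aged against young wild type 2 of the 7 were called higher (Atf4 and Eif2ak3) and 1 lower (Cebpg), where called means a limma adjusted p under 0.05; of all 11506 genes tested, 14.3% were called higher and 19% lower. Aged Trem1-/- against aged wild type gave 1 call higher (Cebpg) and 0 lower, beside 11.5% and 6.82% of all tested genes. Aged Trem1-/- against young wild type gave 0 calls among the 7 in either direction, with limma, edgeR and DESeq2 alike, beside 0.591% and 0.33% of all tested genes. These fits share 1 estimate of the spread over the 3 groups, aged wild type included. The limma fit of the 2 groups alone called 1 of the 7 (Eif2ak3) higher. At an unadjusted limma threshold of 0.05 in the fit of 3 groups, 1 of the 7 (Eif2ak3) passed in that comparison. The median log2 fold change of the 7 genes was 0.50, 0.01 and 0.21 in the 3 comparisons, and that of all tested genes was -0.02, 0.02 and 0.01.

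**Figure D1:**
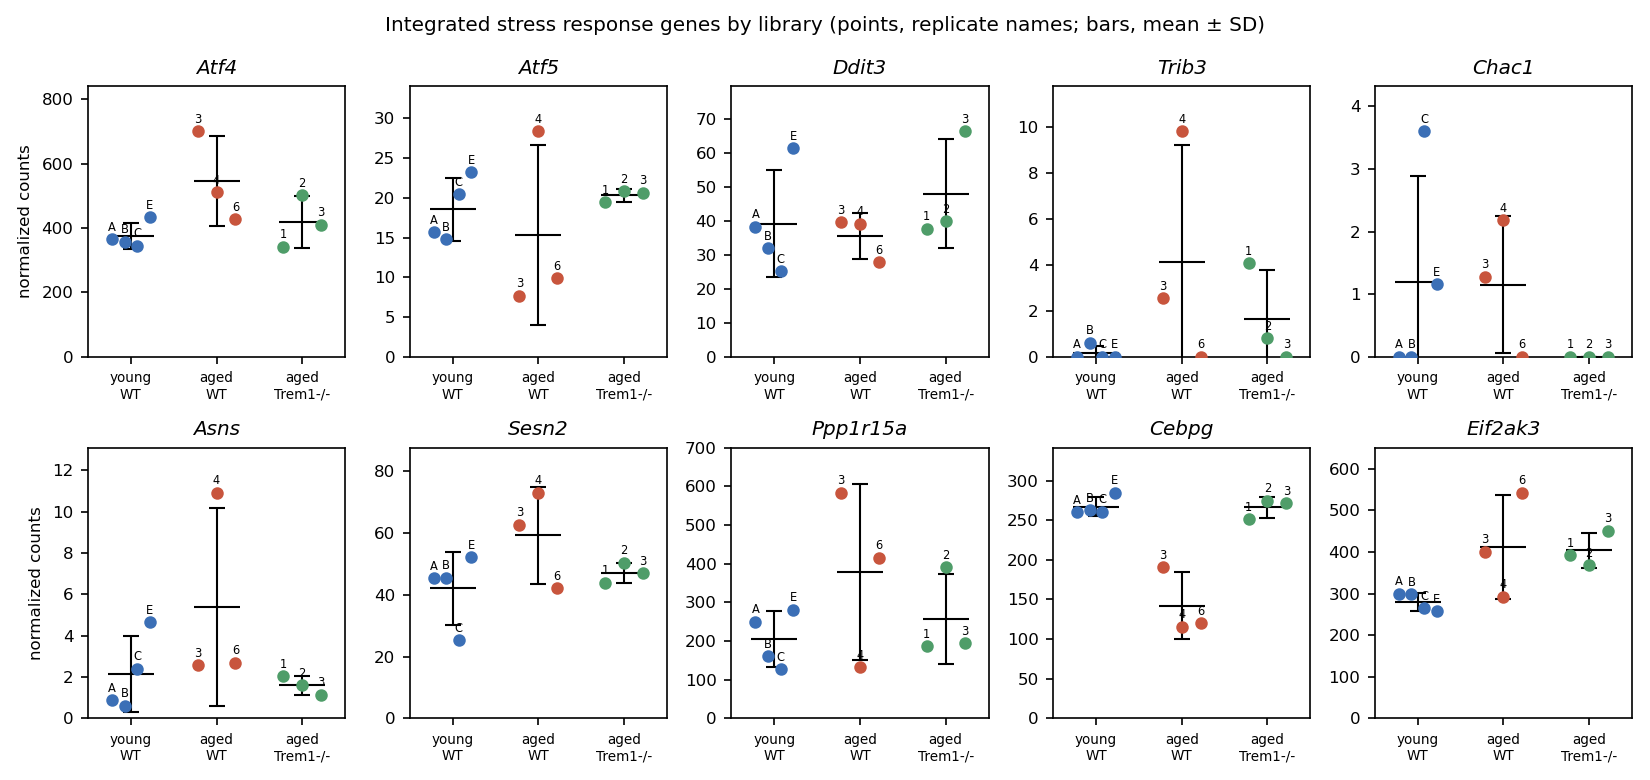
Normalized counts (vertical axes, linear, a different range in each panel) of the 10 integrated stress response genes by group. Points are libraries with their replicate names and bars are the mean ± SD. The aged wild-type points of Cebpg lie at 116 to 191, below the other 7 libraries, and Trib3, Chac1 and Asns stay at or below 10.9 in every library.

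Cebpg, which encodes C/EBPgamma, a bZIP protein that pairs with ATF4, showed the clearest difference between the groups. The young libraries A, B, C and E had 259.7, 262, 261 and 285 normalized counts. Aged wild-type libraries 3, 4 and 6 had 191, 116 and 120, and Trem1-/- libraries 1, 2 and 3 had 251, 275 and 272. All 3 aged wild-type libraries lay below the other 7, while the young and Trem1-/- libraries overlapped. Mean normalized counts were 267 ± 12.0 (SD, n = 4) in the young group, 142 ± 42.0 (n = 3) in aged wild type and 266 ± 12.8 (n = 3) in Trem1-/-, so aged wild type had 0.533 times the young level. The log2 fold change was -0.94 ± 0.16 SE for aged against young wild type (limma adjusted p = 0.00113) and 0.94 ± 0.17 SE for aged Trem1-/- against aged wild type (limma adjusted p = 0.00475). Both comparisons use the same aged wild-type libraries and are not independent. Each call held when any 1 of the 10 libraries was left out, with adjusted p of at most 0.00697 and 0.0218, and with edgeR and DESeq2 on recovered reads. Aged Trem1-/- and young wild type differed by a log2 fold change of -0.0046 ± 0.16 SE (limma adjusted p = 0.994). In bulk RNA, fewer cells of a type and less RNA per cell cannot be told apart. In the same 3 libraries the macrophage marker sum was lower and the B cell marker sum higher. These libraries also had 8.38% to 12.9% of their reads on the single transcript Gm26917, against 4.999% to 5.70% in the other 7, and 3.17% to 5.26% on mitochondrial transcripts, against 1.19% to 2.39%. The part of these differences in the Cebpg values was not tested.

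The gene (ENSMUSG00000056216.9, GRCm38 chr7:35046422-35056573, minus strand) shares 1.37% of its exonic bases with Gm44836 and Gm45095. Its promoter is shown because Cebpg was the member that differed most firmly. The line gives the 100 bases before the RefSeq start site (GRCm38.p6 chr7:35056567-35056666, minus strand), with matches to CCAAT in capitals, read here on the opposite strand as ATTGG.
Cebpg: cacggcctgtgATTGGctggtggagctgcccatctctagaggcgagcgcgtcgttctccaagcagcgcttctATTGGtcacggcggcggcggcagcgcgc
CCAAT was searched on both strands of 32851 RefSeq promoters, each from 250 bases before to 50 after a start, and 37.4% held it. Of the 10 genes 7 had it (Atf4, Atf5, Cebpg, Chac1, Ddit3, Eif2ak3 and Sesn2).

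Eif2ak3 encodes PERK, the eIF2alpha kinase of the endoplasmic reticulum. The young libraries A, B, C and E had 299.8, 298.6, 264 and 258 normalized counts. Aged wild-type libraries 3, 4 and 6 had 401, 292 and 543, and Trem1-/- libraries 1, 2 and 3 had 392, 369 and 451. All Trem1-/- libraries and 2 of the 3 aged wild-type libraries lay above the young ones, and aged wild-type replicate 4 lay within the young range. The group means were 280.2 ± 22.2 (SD, n = 4), 412 ± 125 (n = 3) and 404 ± 42.3 (n = 3). Aged against young wild type gave a log2 fold change of 0.51 ± 0.17 SE (limma adjusted p = 0.0413). The change in aged Trem1-/- against young wild type was as large, 0.52 ± 0.17 SE, without a call (limma adjusted p = 0.192) in a comparison with fewer calls over all genes. The fit of these 2 groups alone called it higher. Between aged Trem1-/- and aged wild type the log2 fold change was 0.012 ± 0.19 SE (limma adjusted p = 0.970). The call in aged against young wild type held with edgeR and DESeq2 on recovered reads (adjusted p = 0.0262 and 0.0123). It was lost when any 1 of 7 libraries was left out (young A, B, C or E, aged wild-type 3 or 6, or Trem1-/- 1), with adjusted p up to 0.182, and after TMM rescaling (adjusted p = 0.0738). The fit of young and aged wild type alone lost it too. The log2 fold change was 0.29 without aged wild-type replicate 6 and 0.74 without aged wild-type replicate 4 (adjusted p = 0.182 and 0.00204). The gene (ENSMUSG00000031668.14, GRCm38 chr6:70844515-70905245, plus strand) shares 8.05% of its exonic bases with Gm43292 on the other strand. Strand-aware counting is not given in the sources used here, so this share of its reads is uncertain.

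Atf4 encodes the central transcription factor of the response. The young libraries A, B, C and E had 366, 358, 346 and 434 normalized counts. Aged wild-type libraries 3, 4 and 6 had 701, 511 and 429, and Trem1-/- libraries 1, 2 and 3 had 342, 503 and 411. Replicates 3 and 4 of aged wild type were the highest of all 10 libraries, but replicate 6 lay just under young replicate E. Group means were 376 ± 39.4 (SD, n = 4), 547 ± 139.98 (n = 3) and 419 ± 80.7 (n = 3). Aged wild type was higher than young by a log2 fold change of 0.52 ± 0.17 SE (limma adjusted p = 0.0391). The call held with edgeR and DESeq2 on recovered reads (adjusted p = 0.0266 and 0.0129). It was lost when young A, B or C, aged wild-type 3 or Trem1-/- 3 was left out, with adjusted p up to 0.171, and after TMM rescaling (adjusted p = 0.0543). Without aged wild-type replicate 3 the log2 fold change was 0.32. Aged Trem1-/- lay between the other groups, with a log2 fold change of -0.37 ± 0.19 SE against aged wild type (limma adjusted p = 0.180) and 0.14 ± 0.17 SE against young wild type (limma adjusted p = 0.775). The gene (ENSMUSG00000042406.8, GRCm38 chr15:80255184-80257541, plus strand) has no exonic overlap with another annotated gene.

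The authors' deposited table, which covers aged against young wild type, called the same 3 genes. Its adjusted p was 3.86e-06 for Cebpg, 0.0253 for Eif2ak3 and 0.0287 for Atf4, and of the 17359 genes with an adjusted p in it 10.6% were called higher and 11.2% lower. For the members without a call, the adjusted p in the authors' deposited table was 0.144 for Trib3, 0.264 for Sesn2, 0.267 for Ppp1r15a, 0.354 for Asns, 0.771 for Atf5 and 0.840 for Ddit3, and Chac1 had none.

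**Figure D2:**
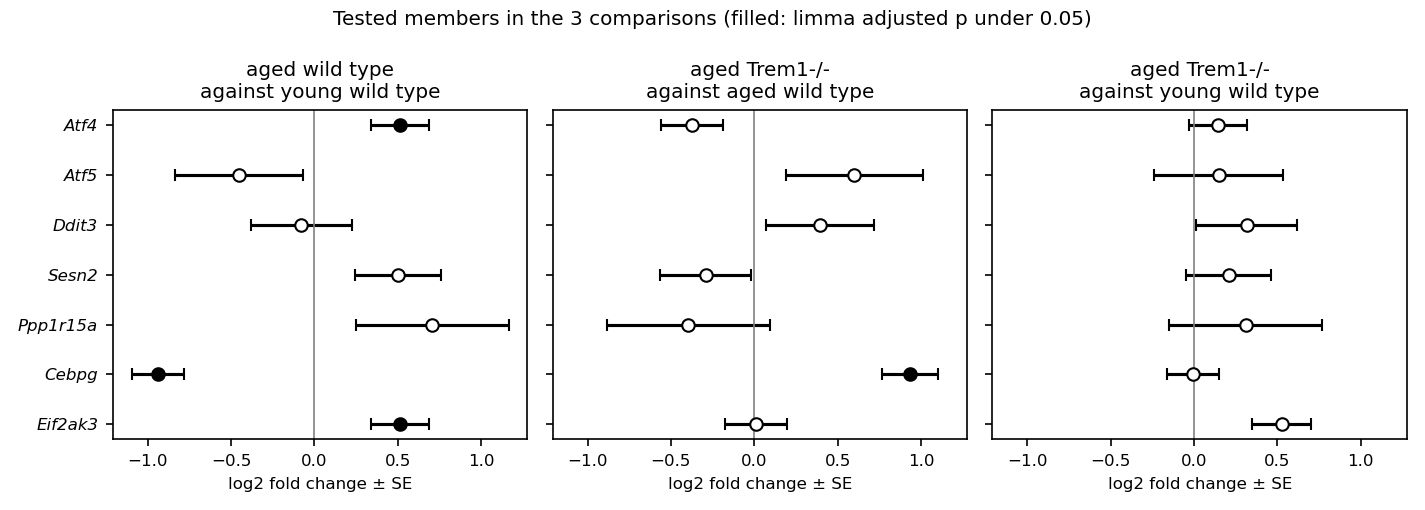
Log2 fold changes ± SE (horizontal axes) of the 7 tested genes in the 3 comparisons; filled points have a limma adjusted p under 0.05. Cebpg lies at -0.94 in the first panel and at 0.94 in the second, and Eif2ak3 lies at 0.51 in the first and at 0.52 in the last.

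Atf5, a bZIP factor of the mitochondrial branch of stress signalling, was read at low counts. The young libraries A, B, C and E had 15.7, 14.8, 20.4 and 23.2 normalized counts. Aged wild-type libraries 3, 4 and 6 had 7.68, 28.4 and 9.88, and Trem1-/- libraries 1, 2 and 3 had 19.4, 20.8 and 20.6. Aged wild type held both the highest and the 2 lowest of the 10 libraries. With all libraries the log2 fold change was -0.45 ± 0.39 SE for aged against young wild type (limma adjusted p = 0.396) and 0.60 ± 0.41 SE for aged Trem1-/- against aged wild type (limma adjusted p = 0.331). Without aged wild-type replicate 4 these became -0.98 (adjusted p = 0.0272) and 1.13 (adjusted p = 0.0266), and without aged wild-type replicate 3 they became -0.11 and 0.25 (adjusted p = 0.874 and 0.733).

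Ddit3 encodes CHOP, the factor that links lasting stress to cell death, and did not separate the groups. Young wild-type libraries A, B, C and E had 38.3, 32.0, 25.2 and 61.6 normalized counts, aged wild-type libraries 3, 4 and 6 had 39.7, 39.3 and 27.9, and Trem1-/- libraries 1, 2 and 3 had 37.8, 40.1 and 66.5. The ranges of all groups overlapped, and young replicate E and Trem1-/- replicate 3 were high within their groups. Log2 fold changes were -0.080 ± 0.30 SE in aged against young wild type, 0.40 ± 0.32 SE in aged Trem1-/- against aged wild type and 0.32 ± 0.30 SE in aged Trem1-/- against young wild type. The limma adjusted p were 0.864, 0.416 and 0.698. The symbol belongs to 2 annotated genes, and 10.9% of the exonic bases of the longer one overlap others, Mars among them, so its counts are uncertain.

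Ppp1r15a encodes GADD34, the inducible subunit that directs protein phosphatase 1 to eIF2alpha and so ends the response. The young libraries A, B, C and E had 250.1, 161, 127 and 281 normalized counts. Aged wild-type libraries 3, 4 and 6 had 584, 133 and 415, and Trem1-/- libraries 1, 2 and 3 had 187, 391 and 194. Aged wild type again spanned nearly the whole range, with replicates 3 and 6 highest and replicate 4 second lowest of the 10 libraries. The mean was 205 ± 72.6 (SD, n = 4) in young and 377 ± 228 (n = 3) in aged wild type, and the log2 fold change of 0.71 ± 0.46 SE was not called (limma adjusted p = 0.261). Without aged wild-type replicate 4 it was 1.33 (adjusted p = 0.0115) and without aged wild-type replicate 3 it was 0.27 (adjusted p = 0.714). In aged Trem1-/- against aged wild type it was -0.39 ± 0.49 SE (limma adjusted p = 0.609) and against young wild type 0.31 ± 0.46 SE (limma adjusted p = 0.831). Atf3, a stress-induced bZIP gene that was also listed, had 851, 97.1 and 612 normalized counts in the same aged wild-type libraries 3, 4 and 6, against 182 to 479 in the young group and 164 to 671 in Trem1-/-, and was not called (limma adjusted p = 0.671, 0.936 and 0.886).

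Sesn2, a stress-induced inhibitor of mTORC1, had 45.3, 45.6, 25.2 and 52.3 normalized counts in young libraries A, B, C and E. It had 62.7, 73.1 and 42.2 in aged wild-type libraries 3, 4 and 6 and 43.9, 50.5 and 47.0 in Trem1-/- libraries 1, 2 and 3. Aged wild-type replicates 3 and 4 were the highest, and replicate 6 was the second lowest of all. The log2 fold change was 0.50 ± 0.26 SE in aged against young wild type (limma adjusted p = 0.159), -0.29 ± 0.28 SE in aged Trem1-/- against aged wild type (limma adjusted p = 0.488) and 0.21 ± 0.26 SE in aged Trem1-/- against young wild type (limma adjusted p = 0.786). The first value was 0.28 without young replicate C, and the second was -0.13 without aged wild-type replicate 4 and -0.52 without replicate 6.

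The spread between libraries was largest in aged wild type for 5 of the 7 tested genes. Coefficients of variation ran from 18.9% (Ddit3) to 74.2% (Atf5) in aged wild type, from 4.49% (Cebpg) to 40.2% (Ddit3) in young wild type and from 3.80% (Atf5) to 45.0% (Ppp1r15a) in Trem1-/-. Aged wild-type replicate 4 was the highest of all 10 libraries for Atf5, Sesn2, Trib3 and Asns, and the lowest of its own group for Ppp1r15a, Cebpg and Eif2ak3. The globin and mitochondrial transcripts that set this library apart were given above, and their part in these values was not tested.

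The classical outputs Trib3, Chac1 and Asns stood near the limit of detection. Depending on the library, 3 reads, the limit that a count of 0 allows, are worth 1.85 to 3.84 normalized counts; this limit covers counting error only. Trib3, a pseudokinase that restrains ATF4 and CHOP, had 17 reads in all libraries together: 1 in young wild type, 2, 9 and 0 in aged wild-type libraries 3, 4 and 6, and 4, 1 and 0 in Trem1-/- libraries 1, 2 and 3. Chac1, which degrades glutathione, had 7 reads in all, of which 4 were in young wild type, 3 in aged wild type and 0 in Trem1-/-. Asns, the asparagine synthetase gene, had 28 reads: 8 in young wild type, 2, 10 and 3 in aged wild-type libraries 3, 4 and 6, and 5 in Trem1-/-. So 9 of the 17 Trib3 reads and 10 of the 28 Asns reads came from aged wild-type replicate 4. Exact two-sided permutation tests on normalized counts gave p of 0.286 to 0.7 for Trib3, 0.4 to 1 for Chac1 and 0.1 to 0.8 for Asns over the 3 comparisons, 9 tests without adjustment. The smallest p these designs allow is 0.0571 against young wild type and 0.1 between the aged groups. Asns in aged Trem1-/- against aged wild type was at that limit of 0.1, with means of 1.60 ± 0.448 (n = 3) and 5.39 ± 4.78 (SD, n = 3). Normalized counts did not overlap, at 1.15 to 2.04 against 2.56 to 10.9. In whole reads the groups met: aged wild-type library 3 and Trem1-/- libraries 1 and 2 had 2 reads each. The separation thus rests on the scaling for depth. Lowering or dropping the minimum on the mean called none of the 3 with limma (adjusted p of at least 0.160).

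These 3 genes were also the members with a C/EBP-ATF response element core within the promoter window, read as TGATGNAA on either strand. The core is known from ATF4 targets, and the more exact form TGATGCAA, contained in the first, was found in Chac1. Their windows are shown because they hold the element next to levels near detection. Capitals mark the match. The windows are GRCm38.p6 chr2:119351022-119351081 on the plus strand for Chac1, chr2:152344031-152344060 on the minus strand for Trib3 and chr6:7693210-7693269 on the minus strand for Asns, all from RefSeq and written 5′ to 3′ along the gene.
Chac1: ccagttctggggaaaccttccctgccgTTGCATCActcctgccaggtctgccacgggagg
Trib3: agattagctcaggtTTACATCAgccgggcg
Asns: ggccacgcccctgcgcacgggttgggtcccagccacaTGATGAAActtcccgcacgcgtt
The match lies 193 to 186 bases before the start in Chac1, 23 to 16 before it in Asns and at positions 15 to 22 after it in Trib3. TGATGNAA was present in 3.97% and TGATGCAA in 0.895% of the 32851 promoters. A cAMP response element, TGACGTCA, was present in 1.79% and among the members in Ppp1r15a, whose last 60 bases before the start (GRCm38.p6 chr7:45526269-45526328, minus strand) are given with the element in capitals.
Ppp1r15a: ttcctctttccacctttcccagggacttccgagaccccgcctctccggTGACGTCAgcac
A match describes these letters and is not evidence of binding, and windows without one say nothing about a factor.

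**Figure D3:**
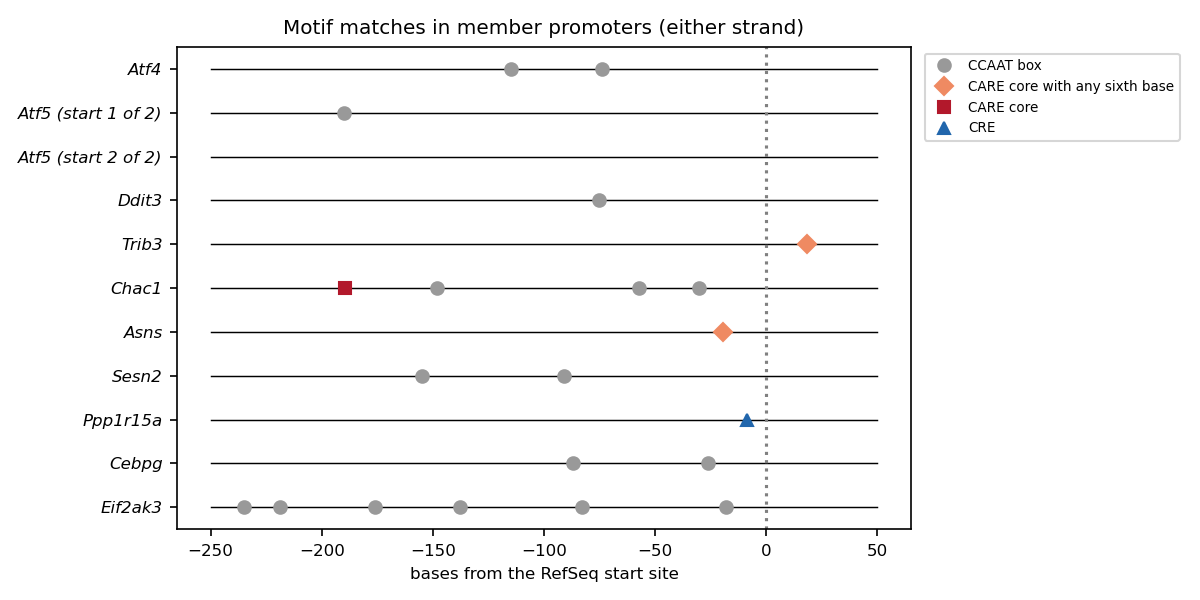
Positions of the motif matches (symbols) in the 11 RefSeq promoters of the 10 genes, in bases from the start site (horizontal axis, 250 before to 50 after; Atf5 has 2 starts). The C/EBP-ATF cores lie in Chac1, Asns and Trib3 and the cAMP response element in Ppp1r15a.

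Another 10 lists of the same pathway, 123 tested genes in all, held 18 genes called higher and 22 lower in aged against young wild type, 20 higher and 7 lower in aged Trem1-/- against aged wild type, and 1 higher and 0 lower in aged Trem1-/- against young wild type. These are 14.6% and 17.9%, 16.3% and 5.7%, and 0.8% and 0% of the 123. Over all tested genes the shares were 14.3% and 19%, 11.5% and 6.82%, and 0.591% and 0.33%. The shares of the lists were near these in the first and last comparison. The 20 became 11 without aged wild-type 6 or Trem1-/- 2, and the 7 became 3 or 4 without aged wild-type 3 or 6 or any of the Trem1-/- libraries and 11 without aged wild-type 4. Of 9 bZIP genes listed as relatives or partners of ATF4, 3 fell in aged wild type (Cebpa, Cebpb and Jdp2) and 0 rose, and 4 were higher in Trem1-/- than in aged wild type (the same 3 and Nfe2l2). The Jdp2 call in aged wild type was lost without young C or E or aged wild-type 3, and the Nfe2l2 call without aged wild-type 3 or 6 or Trem1-/- 2. Cebpb, a macrophage differentiation factor, went from 1731 ± 484 (SD, n = 4) in young to 683 ± 62.4 (n = 3) in aged wild type and was at 1822 ± 561 (n = 3) in Trem1-/-. Its log2 fold changes were -1.30 ± 0.24 SE and 1.37 ± 0.25 SE (limma adjusted p = 0.00180 and 0.00529), calls that held with any 1 library left out. Tmem189 overlaps 20.7% of its exonic bases. Cebpa, a myeloid lineage factor, had 794 ± 92.9 (SD, n = 4), 279.5 ± 134 (n = 3) and 750.2 ± 76.0 (n = 3) normalized counts. The list's median log2 fold change was -0.64 in aged against young wild type, beside -0.02 over all tested genes. Without Trem1-/- replicate 2 the list had 5 calls lower in that comparison.

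Of 3 other eIF2alpha kinases, Eif2ak4, the sensor of uncharged tRNA, rose in aged wild type by a log2 fold change of 0.34 ± 0.12 SE (limma adjusted p = 0.0478), a call lost when any 1 of 8 libraries was left out. The Eif2ak4 call held with edgeR and DESeq2 (adjusted p = 0.0315 and 0.0410) and was lost after TMM rescaling (adjusted p = 0.125). Of 11 genes of eIF2, eIF2B and the eIF2alpha phosphatase, Nck1, an adaptor, fell from 246 ± 17.3 (SD, n = 4) to 141 ± 16.4 (n = 3) and was at 255 ± 32.7 (n = 3) in Trem1-/- (limma adjusted p = 0.000792 and 0.00294). Ppp1r15b, the constitutive partner of Ppp1r15a, fell by 0.32 on the log2 scale in aged wild type (limma adjusted p = 0.0465, lost when any 1 of 7 libraries was left out). That call was also lost with edgeR and DESeq2 (adjusted p = 0.0674 and 0.0760) and held after TMM rescaling (adjusted p = 0.0158). Ppp1r15b was higher by 0.57 ± 0.12 SE in Trem1-/- than in aged wild type (limma adjusted p = 0.00960). Of the 22 genes of the ATF6 and XBP1 arms of the unfolded protein response, the branches that run beside PERK, 10 fell and 2 rose (Atf6 and Syvn1) in aged wild type, and 12 were higher and 0 lower in Trem1-/- against aged wild type. Of all tested genes 19% were called lower and 14.3% higher in the former comparison, and 11.5% higher and 6.82% lower in the latter. The count of 12 was 5, 4 and 4 without aged wild-type replicate 3, without aged wild-type replicate 6 and without Trem1-/- replicate 2. Canx, the chaperone calnexin, fell from 3106 ± 443 (SD, n = 4) to 1598 ± 228 (n = 3) and was at 2675 ± 263 (n = 3) in Trem1-/- (limma adjusted p = 0.000500 and 0.00618). Hspa5, the chaperone BiP, was higher in Trem1-/- than in aged wild type by a log2 fold change of 1.12 ± 0.29 SE (limma adjusted p = 0.0223), and was not called in aged against young wild type (-0.72 ± 0.27 SE, limma adjusted p = 0.0603). Its Trem1-/- libraries 1, 2 and 3 had 2415, 5698 and 2427 normalized counts. Without library 2 the log2 fold changes were 0.71 against aged wild type (adjusted p = 0.0394) and -0.72 in aged against young wild type (adjusted p = 0.00536), and the former call was lost without aged wild-type 3 or 6 (adjusted p = 0.0603 and 0.0716). Xbp1 was not called in any comparison (limma adjusted p = 0.199, 0.0696 and 0.626).

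Of the amino acid genes that ATF4 is known to control, those of synthesis and transport were called mostly higher in aged wild type. Their list medians of log2 fold change were 0.40 and 0.69 there, and -0.48 and -0.39 in aged Trem1-/- against aged wild type. The medians of aminoacyl-tRNA synthetases were -0.15 and 0.06, and those of all tested genes -0.02 and 0.02. Of all tested genes 14.3% were called higher and 19% lower in the former comparison, and 11.5% and 6.82% in the latter. Of 14 genes of amino acid and folate-linked synthesis 11 were tested, and in aged wild type 4 rose (Aldh1l2, Phgdh, Mthfd1l and Aldh18a1) and 1 fell (Psat1). The Aldh18a1 call was lost without young A or B or aged wild-type 4 or 6. Psat1, of serine synthesis, went from 68.9 ± 27.0 (SD, n = 4) to 25.9 ± 8.92 (n = 3; limma adjusted p = 0.00768), while Phgdh, the enzyme one step earlier, went from 36.8 ± 10.9 to 136 ± 23.8 (limma adjusted p = 0.00135). Of the 50-base stretches of Phgdh 47.8% also occur in other annotated genes, so its counts are uncertain. Mthfd2, of the mitochondrial folate cycle, had 46.6 ± 7.41 and 47.8 ± 10.5 (limma adjusted p = 0.943). Of 11 amino acid transporter genes 6 were tested and 3 rose (Slc1a5, Slc7a1 and Slc38a1), with the Slc38a1 call lost without young A or E or aged wild-type 3. Slc3a2 was not called (limma adjusted p = 0.505), and Slc7a11, the cystine importer, was too low to test, with 0 to 7.0 normalized counts per library. Of 20 genes of aminoacyl-tRNA synthetases and tRNA export, Vars rose and Gars and Nars fell. The Vars and Gars calls held with any 1 library left out, and the Nars call was lost without young C or E or aged wild-type 3 or 6. Among 17 tested other targets of ATF4 or CHOP, 3 rose (Sesn3, Trib2 and Vegfa) and 3 fell (Nupr1, Sesn1 and Eif4ebp1). The second count was 5 without aged wild-type 3 and 5 with DESeq2. Of 11 genes of mitochondrial stress Dele1 fell, a call lost without young C or aged wild-type 3, and 2 genes were called lower without aged wild-type 4. Of 13 genes of mTORC1 and its sensors 4 rose, a count of 2 without young wild-type A, C or E or aged wild-type 3 or 6. In aged Trem1-/- against aged wild type the calls in these lists were lower for Slc1a5, Aldh1l2, Mthfd1l, Vars, Trib2, Vegfa and Sesn3 and higher for Nupr1 and Eif4ebp1. The calls of Aldh1l2, Vars, Trib2, Nupr1 and Eif4ebp1 held with any 1 library left out. That of Slc1a5 was lost without aged wild-type 6 or Trem1-/- 3, and those of Mthfd1l, Sesn3 and Vegfa were lost when any 1 of 5, 6 and 7 libraries, respectively, was left out. Among the other targets of ATF4 or CHOP the count lower was 1 without young C, aged wild-type 3 or 6 or Trem1-/- 1 or 2, and the count higher was 4 without aged wild-type 3. In aged Trem1-/- against young wild type the 1 call was Aldh1l2, higher by a log2 fold change of 2.43 ± 0.45 SE (limma adjusted p = 0.0373), lost when any 1 of 6 libraries was left out. With edgeR Aldh1l2 was not called, and its list had 0 calls higher there and 2 with DESeq2. Its young libraries had 1.16 to 3.49 normalized counts, near the limit of detection, and its Trem1-/- libraries 8.81 to 28.7. D10Wsu102e, on the other strand, overlaps 14.1% of its exonic bases, so its counts are uncertain. In the 9 lists without a call in that comparison, the most abundant tested genes (Eif2ak1, Ppp1ca, Junb, Slc38a1, Vars, Txnip, Calr, Hspa9 and Tsc2) had log2 fold changes of -0.13 to 0.48.

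**Figure D4:**
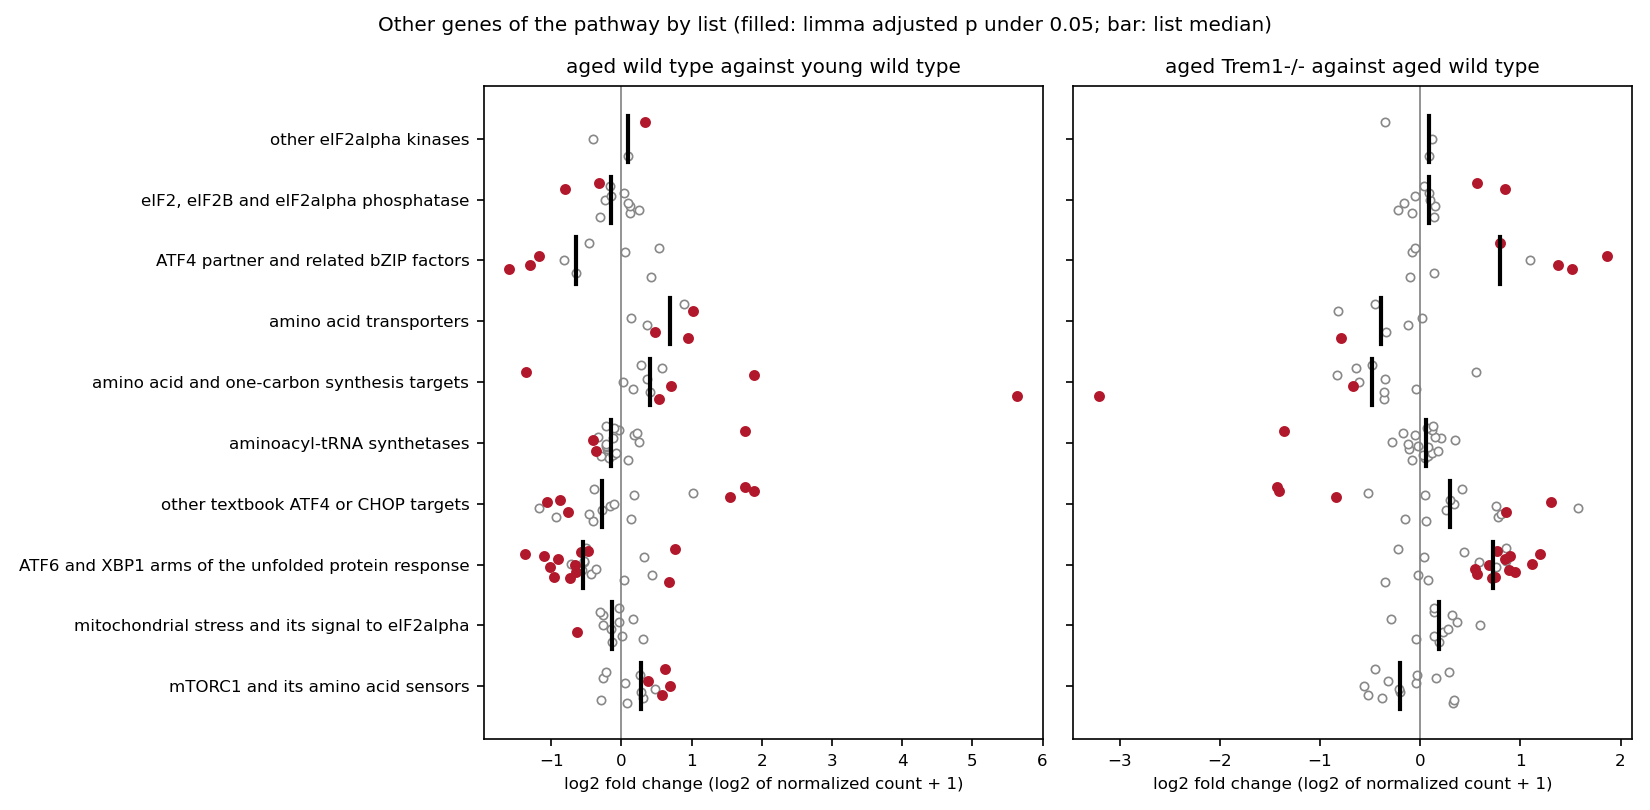
Log2 fold changes (horizontal axes) of the tested genes of the 10 other lists (rows) in aged against young wild type and in aged Trem1-/- against aged wild type, which share the aged wild-type libraries. Filled points have a limma adjusted p under 0.05 and vertical bars are list medians; the bZIP and the ATF6 and XBP1 rows have medians of -0.64 and -0.55 in the first panel and 0.80 and 0.73 in the second.

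Several marker lists differed between these groups, and others did not. In aged against young wild type, 9 of 11 macrophage markers were called lower and 0 higher, 10 of 10 B cell markers and 7 of 7 tested T and NK cell markers were called higher, and 8 of 9 mitochondrial transcripts were called higher. In aged Trem1-/- against aged wild type, 8 macrophage markers were called higher, and 4 B cell, 5 T and NK cell, 5 erythroid and 4 mitochondrial markers were called lower. In aged Trem1-/- against young wild type, 2 B cell, 1 plasma cell and 1 T and NK cell marker were called higher and 0 lower. Of the macrophage markers 0 were called in that comparison. The 5 tested erythroid markers were called higher in aged against young wild type. Erythroid sums were 9.30 to 751 in the young group, 473 to 23701 in aged wild type and 17.2 to 57.7 in Trem1-/-. Mesothelial and fibroblast markers summed to 9.85 to 319, 482 to 679.8 and 14.3 to 411 in the same order; of 7 tested, 2 were called higher in aged wild type and 1 lower in Trem1-/- against aged wild type. The sum over 7 plasma cell markers, a cell type rich in chaperones of the unfolded protein response, was 321 to 503 in the young group, 756 to 1249 in aged wild type and 510 to 849 in Trem1-/-. Of 4 tested, 2 were called higher in aged against young wild type and 1 lower in Trem1-/- against aged wild type. Irf4 alone had 214 to 547 normalized counts per library. Sdc1 went the other way, at 28.8 to 45.0 in young and 14.4 to 28.4 in aged wild type. None of 5 tested mast cell markers was called in any comparison. Their list summed to 44.2 to 1144 in the young group, 846 to 1908 in aged wild type and 113 to 1484 in Trem1-/-. Of 4 tested dendritic cell markers, 1 was called higher and 2 lower in aged against young wild type. No neutrophil or eosinophil marker was high enough to test. Of the markers listed, Prg2, of eosinophils, was at 0 in all libraries. The part of these markers in the values of Cebpg, the bZIP genes and the chaperones was not tested.

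**Figure D5:**
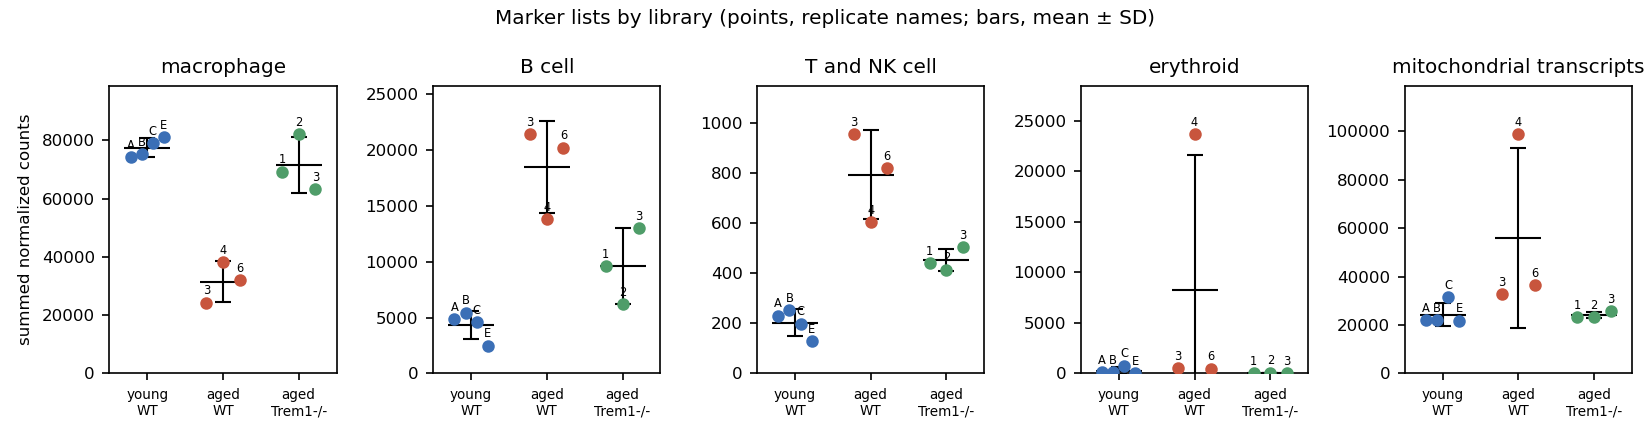
Summed normalized counts (vertical axes, linear) of 5 marker lists by group; points are libraries and bars the mean ± SD. Aged wild-type libraries have the lowest macrophage sums (24284 to 38182), and replicate 4 has an erythroid sum of 23701.

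The genes most like each called member, by the root mean square difference between centred log2 profiles over the 10 libraries among 11499 genes, were Il6ra (0.142) and Tlr7 (0.145) for Cebpg, Phf5a (0.113) and Tcf20 (0.120) for Atf4, and Gm47260 (0.152) and Clasp1 (0.152) for Eif2ak3. Il6ra, an interleukin 6 receptor chain gene, had 856 ± 82.5 (SD, n = 4) normalized counts in the young, 433 ± 81.5 (n = 3) in the aged wild-type group and 881 ± 69.1 (n = 3) in Trem1-/-. Tlr7, an endosomal RNA receptor gene, had 259 ± 22.9 (SD, n = 4), 150.3 ± 28.8 (n = 3) and 234 ± 5.24 (n = 3).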

How the data were processed

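The members and the gene lists were chosen with earlier results of these data known. Per the submitters' processing notes, reads were processed on GRCm38 with tools that include STAR, fastp, DESeq2 1.20.0 and featureCounts 1.5.0-p3, with parameters not stated in these sources. Per the labels' protocols, a stranded Takara kit made the cDNA and a NEBNext Ultra kit the libraries. The authors deposited normalized counts, a signal whose values were multiples of a constant in each library (100% of values within 1e-06), which gave back whole reads. They also deposited a comparison of aged with young wild type as log2 fold change, standard error, a score (Wald statistic), p-value and adjusted p-value.

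Tests were limma-trend on log2(normalized count + 1) with limma 3.58.1 in R 4.3.3, a scale that understates changes of low genes, in 1 model of 10 libraries and 3 groups. Genes with a mean of at least 10 were tested (11506), with Benjamini-Hochberg adjustment over all of them within each comparison. The 3 genes below that minimum had exact permutation tests. The test was run on simulated data that gave each gene 1 spread in all groups. That check does not cover the wider spread of aged wild type. Alternatives were edgeR 4.0.16 (quasi-likelihood) and DESeq2 1.42.0 on recovered reads, TMM rescaling, pseudocounts of 0.5 and 5, lower minimums, fits of 2 groups and each library left out. Symbols were matched to GENCODE M21 (GRCm38) for coordinates and overlaps, and to RefSeq promoters (GRCm38.p6). Named list genes were drawn from those called, up to 3 per direction by adjusted p (where none, the most abundant). Atf3, Cebpb, Psat1, Mthfd2, Slc7a11, Slc3a2, Hspa5 and Xbp1 were named whatever their values. In the mTORC1 list and the ATF6 and XBP1 list, not all genes that the rule gave are named. Nfe2l2 and Aldh18a1 fall outside this rule and were named after their values were seen, to complete a count.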

Additional observations from a re-analysis of the deposited data

Results flagged for a closer look

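Cebpg in young wild-type replicate E, at 284.74 normalized counts, stood far from the other 3 young libraries, which lay between 259.7 and 262. Its gap to the nearest was 0.896 of the group's range, above Dixon's 95% critical value for 4 samples. Chance gives such a gap in about 1 of 20 groups, and 7 genes were looked at in that group. The Cebpg log2 fold change of aged against young wild type without this library was -0.91, against -0.94 with it, and the call held.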

How the results depend on the processing

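The Cebpg calls held under each alternative. The Atf4 and Eif2ak3 calls held with edgeR and DESeq2 but not after TMM rescaling or with some libraries left out. In aged against young wild type, 2 genes were called higher. The count was 0 after TMM rescaling, 1 in the fit of 2 groups (Atf4, with the Eif2ak3 call lost) and 0 to 3 with a library left out. The count called lower was 1 to 2 with a library left out, and the count higher in Trem1-/- against aged wild type 1 to 2, with 2 in each case without aged wild-type replicate 4. Against young wild type the fit of 2 groups called 1 gene (Eif2ak3) higher in Trem1-/-.

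Over all genes, Trem1-/- against aged wild type had 726 calls higher and 445 lower in the fit of 2 groups, and 762 to 1785 and 315 to 1015 with a library left out. Against young wild type it had 253 and 195 with DESeq2, 161 and 102 with no minimum, 60 lower with a minimum of 1, 154 and 145 in the fit of 2 groups, and 0 to 159 and 0 to 109 with a library left out. The causes were not tested.

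Small log2 fold changes changed sign: Eif2ak3 in Trem1-/- against aged wild type was -0.065 with edgeR and -0.068 with DESeq2, and with a library left out ran from -0.21 to 0.23. The other ranges across 0 with a library left out were -0.26 to 0.16 for Ddit3 in aged against young wild type, -1.02 to 0.041 for Ppp1r15a in Trem1-/- against aged wild type and, against young wild type, -0.017 to 0.32 for Sesn2, -0.035 to 0.496 for Ppp1r15a and -0.029 to 0.036 for Cebpg. Under the alternatives other than leaving out a library, 162 log2 fold changes of members kept their direction and side of the threshold, 3 lost and 1 gained a call, and 2 changed sign. Trib3, Chac1 and Asns had 17, 7 and 28 reads over all libraries, which limited what their tests could show. No paired analysis was possible because the labels give no pairing of libraries. Equal replicate numbers in the 2 aged groups do not mark pairs.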
